A study of Mus musculus with 14 samples.

Results

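A total of 1014 autosomal CpG sites were listed as wholly unmethylated in some mice and as clearly methylated in others. They were chosen from the 72480 sites on chromosomes 1 to 19, out of 75761 sites in all, because their lowest methylation level over 14 mice was exactly 0 and their highest was at least 30%. They made up 1.40% of the autosomal sites and 36.8% of the 2756 autosomal sites whose lowest level was 0; at the other 1742 of those, no mouse reached 30%. The levels themselves chose the sites, so the number of zeros and the spread of the levels are described and not tested.

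DNA methylation in mammals sits mostly on the cytosine of a CpG dinucleotide. Most CpGs of the genome carry it, whereas CpG islands, the CpG-dense stretches found at many promoters, are usually free of it, and a methylated promoter island is usually linked to a silent gene. Reduced-representation bisulfite sequencing (RRBS) cuts genomic DNA with MspI, an enzyme that cuts within CCGG, and reads the ends of short fragments after bisulfite has converted unmethylated cytosines, so that each level is the methylated share of the reads at a cytosine.

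DNA came from the mammary fat pad on the side opposite the tumor in C57BL/6N mice, all of them bearing a tumor from E0771 cells, a mouse mammary cancer line, injected into the 4th mammary fat pad 22 weeks after the diets began. All were adult wild-type females. CON-LFD mice (n = 3) were never obese, ate the control diet and had sham surgery. DIO-HFD mice (n = 4) stayed obese on a 60% high-fat diet with sham surgery; DIO-LFD mice (n = 3) were made obese on that diet, had sham surgery and lost weight on a low-fat diet; DIO-VSG mice (n = 4) were made obese, had vertical sleeve gastrectomy (VSG) and were then fed the low-fat diet. The labels name the tissue as normal mammary tissue while giving a cancer cell type beside it; the methylation levels alone do not identify cell types, and fat, epithelial and immune cells of the pad are pooled in every level.

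Examples of the sites are shown on the plus strand of mm10 (RefSeq sequence), with the listed CpGs in capitals. The first set holds sites at which every mouse of a group was at 0, in windows of 30 bases; all 5 lie within CCGG, the sequence that MspI cuts. Ctnnb1 encodes beta-catenin, the coactivator of Wnt signaling; Zc3h6 a CCCH zinc finger protein; Nkiras1 a small Ras-like protein that restrains NF-κB; Ogdh a subunit of the 2-oxoglutarate dehydrogenase complex; and Bicd1 an adaptor of the dynein motor.
Ctnnb1, chr9:120933356-120933385: gggactactttcccCGgcccgcccgcgccc
Zc3h6, chr2:128967479-128967508: tgcacgccgcccgcCGgctcccacgcctca
Nkiras1, chr14:18271324-18271353: gttggtgtttccacCGgcgcctcgctccgt
Ogdh, chr11:6291633-6291662: gagagtttggagccCGgagtggtgtcggcg
Bicd1, chr6:149409272-149409301: ctcctcagtgcttcCGgccgtgtagccgca

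The second set holds dense clusters, in which neighbouring CpGs were at 0 together. The first lies in a coding exon of C2cd4b, although the table names the transcript M5C1000I18Rik as nearest, and the second lies in an exon of the noncoding gene Gm12241, although the table names Gm22603. None of these CpGs is within CCGG.
M5C1000I18Rik cluster, chr9:67760534-67760593: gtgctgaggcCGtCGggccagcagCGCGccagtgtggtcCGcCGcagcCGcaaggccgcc
Gm22603 cluster, chr11:56459431-56459531: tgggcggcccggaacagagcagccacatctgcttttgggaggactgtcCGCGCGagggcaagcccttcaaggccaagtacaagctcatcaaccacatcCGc

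The third set holds 2 whole MspI fragments, from one CCGG to the next, because the CpGs at the 2 ends are read from the same fragment. The Kdm1a fragment lies in a coding exon of that gene, which encodes the histone demethylase LSD1, and the Bmpr1a fragment in an intron of the gene for a type I BMP receptor.
Kdm1a fragment, chr4:136602368-136602509: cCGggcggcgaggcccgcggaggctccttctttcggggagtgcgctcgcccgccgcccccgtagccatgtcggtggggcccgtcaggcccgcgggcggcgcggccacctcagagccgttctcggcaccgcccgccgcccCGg
Bmpr1a fragment, chr14:34502900-34503043: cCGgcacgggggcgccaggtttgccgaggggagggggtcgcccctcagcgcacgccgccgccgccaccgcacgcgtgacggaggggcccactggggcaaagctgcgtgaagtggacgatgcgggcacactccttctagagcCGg

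Most sites had a single mouse at 0. At 663 of the 1014 sites (65.4%) exactly 1 mouse was at 0, at 158 sites 2 mice were and at 72 sites 3 mice were, while at 36 sites 7 or more of the 14 mice were at 0. In all, 1903 of the 14196 levels (13.4%) were exactly 0. The levels above 0 had a median of 35.5% with quartiles of 22.8% and 46.2%. At 610 sites every mouse that was not at 0 was at 10% or more, and at 290 sites every mouse was either at 0 or at 30% or more. At 187 sites the picture was turned around, in that a single mouse alone reached 30%.

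The limit of 30% cut through a continuous range. The highest levels just inside it were 30% at Gm37233, Lmx1a and C130021I20Rik, and those just outside it were 29.9% at Otx2os1, 29.9% at Med1 and 29.8% at Smad6. Another 129 of the 3281 sites on chromosomes X, Y and M (3.93%) met both limits and are not described here.

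**Figure D1:**
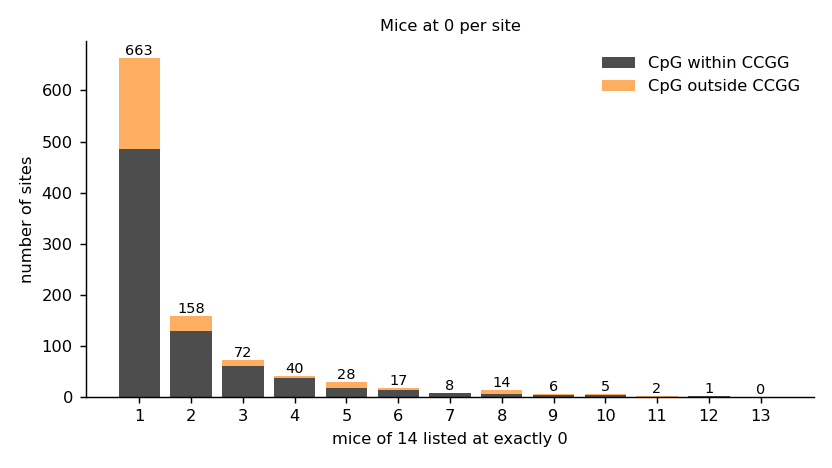
The number of sites (y axis) is plotted by the number of the 14 mice listed at exactly 0 (x axis), with CpGs within CCGG in grey and CpGs outside it in orange. The bar at 1 mouse holds 663 sites, and the counts fall to 1 site at 12 mice.

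The zeros were unevenly spread over the mice and the groups. CON-LFD mice were at 0 at 144, 26 and 96 of the 1014 sites, and DIO-HFD mice at 88, 52, 56 and 106. DIO-LFD mice were at 0 at 115, 246 and 326 sites, and DIO-VSG mice at 136, 306, 133 and 73. The 3 mice with the most zeros were thus DIO-LFD replicates 2 and 3 and DIO-VSG replicate 2, while the other DIO-VSG mice overlapped with CON-LFD and DIO-HFD mice. As shares of the sites, the group means were 8.74% ± 5.85 (SD, n = 3) in CON-LFD, 7.45% ± 2.56 (SD, n = 4) in DIO-HFD, 22.6% ± 10.5 (SD, n = 3) in DIO-LFD and 16% ± 9.89 (SD, n = 4) in DIO-VSG. Leaving out each mouse in turn, with the sites chosen again over the others, the mean ran from 20.6% to 29.4% in DIO-LFD and from 12.5% to 18.9% in DIO-VSG.

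By group, 336 sites (33.1%) had zeros in DIO-LFD mice only, 215 in DIO-VSG only, 100 in DIO-HFD only and 58 in CON-LFD only, and 98 had zeros in both DIO-LFD and DIO-VSG and in neither other group. Zeros in all 4 groups were found at 38 sites. Single mice carried much of this, since 153 sites were at 0 in DIO-LFD replicate 2 alone, 140 in DIO-LFD replicate 3 alone and 135 in DIO-VSG replicate 2 alone. Over all autosomal sites, the chosen ones included, these mice also had the most zeros, at 1.09%, 1.40% and 1.18% of the sites. In the other mice the share was 0.313% to 0.857%. DIO-LFD replicate 3 and DIO-VSG replicate 2, mice of different groups, were at 0 together at 121 sites, which is 37.1% of the zeros of the first and 39.5% of those of the second. DIO-LFD replicates 2 and 3, mice of the same group, shared 31 sites (12.6% and 9.51%).

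Low sites that could not be chosen were used to ask whether a group had more exact zeros than DIO-HFD mice. At the 5307 autosomal sites under 30% in every mouse, 7.45% ± 3.185 (SD, n = 3) were at 0 in CON-LFD, 6.10% ± 2.01 (SD, n = 4) in DIO-HFD, 10.3% ± 2.68 (SD, n = 3) in DIO-LFD and 8.75% ± 1.52 (SD, n = 4) in DIO-VSG. The difference from DIO-HFD was 1.35 percentage points in CON-LFD (exact permutation test over mice, two-sided, p = 0.514), 4.16 in DIO-LFD (exact p = 0.114) and 2.65 in DIO-VSG (exact p = 0.0857), and after Benjamini-Hochberg adjustment over the 3 comparisons, which share the DIO-HFD mice, the exact permutation p was 0.514, 0.171 and 0.171. None passed 0.05, and the smallest p this design allows is 0.0571 for 3 against 4 mice and 0.0286 for 4 against 4. When a level of at most 0.02 was counted in place of an exact 0, the difference turned to -1.43 points in CON-LFD and -1.17 in DIO-VSG and shrank to 0.488 in DIO-LFD (exact permutation p = 0.971). Over sites under 20% in every mouse it was 2.97, 8.33 and 6.31 points in CON-LFD, DIO-LFD and DIO-VSG, and over low sites with an SD of at least 0.05 it was 1.48 points in DIO-VSG; none of these passed 0.05. The read depth behind a level is unknown here, since the table gives fractions only, and fewer reads give more exact zeros, so depth and group cannot be told apart in these counts.

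**Figure D2:**
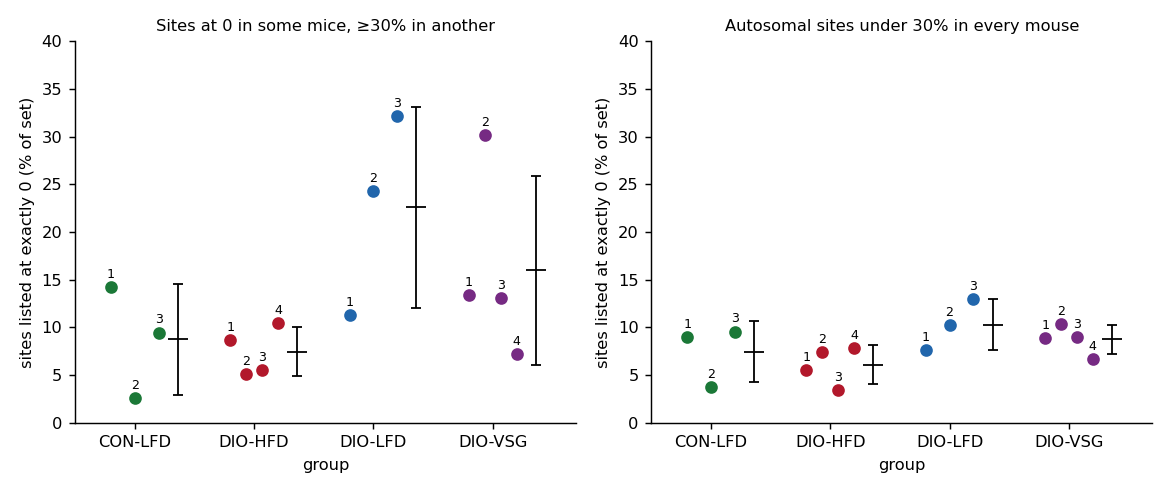
The percent of sites listed at exactly 0 (y axis) is plotted for each mouse (points, numbered by replicate) by group, for the 1014 sites on the left and for autosomal sites under 30% in every mouse on the right; bars give the mean and SD. On the left DIO-LFD replicates 2 and 3 and DIO-VSG replicate 2 sit at 24.3%, 32.1% and 30.2%, with every other mouse at 14.2% or less.

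The sites were concentrated in promoter CpG islands and at MspI cut sites. The table flagged 701 of them (69.1%) as promoter, against 25.3% of all autosomal sites, 665 (65.6%) as CpG island, against 23.2%, and 533 (52.6%) as both, against 13%. The sites with a 0 and no mouse at 30% were flagged as promoter at 61.3%, as island at 61.1% and as both at 42.3%, so much of this was shared with other sites that had a 0. Exon flags (34.1% against 30.3%) and intron flags (43.2% against 41.7%) were about as frequent as elsewhere, and only 7.40% had no flag, against 24.7%. Bases soft-masked as repeats held 6.02% of the sites, against 22.7% of all autosomal sites. The bases within 50 bp on either side of a site had a median GC content of 69.3% with 9 CpGs, against 60.4% with 4 CpGs over all autosomal sites and 66.3% with 8 CpGs at the sites with a 0 and no mouse at 30%.

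Within CCGG lay 761 of the sites (75%), against 33.3% of all autosomal sites and 14.5% of the low sites that also had a 0. Sites within CCGG and outside it looked different. The median level above 0 was 39.8% within CCGG and 17.9% outside, and the lowest level above 0 was at least 10% at 73.7% of the first and at 19.4% of the second. Of the 290 sites where every mouse was at 0 or at 30% or more, 283 (97.6%) were within CCGG, and of the 187 sites where 1 mouse alone reached 30%, 53 (28.3%) were. Within CCGG, DIO-LFD replicates 2 and 3 and DIO-VSG replicate 2 were at 0 at 26.9%, 34.8% and 33.8% of the sites, and outside it at 16.2%, 24.1% and 19.4%. DIO-LFD replicate 1, with 11.7% and 10.3%, went the same way. In the other 10 mice the share at 0 was higher outside CCGG, by the most in DIO-HFD replicate 2, with 2.50% within CCGG and 13% outside, and by the least in CON-LFD replicate 2, with 2.50% and 2.77%.

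At most MspI fragments with a chosen site at an end, the CpGs at the 2 ends moved in opposite directions. This was examined after the sequence context of the sites had been seen. Among the sites within CCGG, 578 had the next CCGG 40 to 170 bases away, the fragment sizes the library kept, and at 383 of them that other end was itself a listed site. Over 782 zeros with a listed other end, the other end was at 75.3% on average in the mouse at 0 and at 56.9% in the mice above 0, a difference of 18.4 percentage points. The difference was positive in all 14 mice, from 4.96 points in DIO-HFD replicate 2 to 23.8 points in DIO-LFD replicate 3. The other end was at exactly 100% at 233 of the 782 zeros (29.8%), against 1.25% of the 4734 levels in mice above 0, and it was also 0 at 12 (1.53%). With the fragments that had both ends among the 1014 sites left out, the difference was 17.4 points over 694 zeros.

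In the Kdm1a fragment printed above, the site at 136602507 was at 0 in CON-LFD replicates 1 and 3, DIO-HFD replicate 3, DIO-LFD replicates 1 and 3 and DIO-VSG replicates 1 to 3. The other end was at 79.2% to 97.1% in those 8 mice and at 60.6% to 68.4% in the other 6. Pearson's r between the ends over the 14 mice was -0.92. In the Bmpr1a fragment the site at 34502901 was at 0 in 7 mice, in which the other end was at 95.2% to 100%. In the 7 mice above 0 it was at 65.5% to 100%, and r was -0.99. Cdc42bpa, which encodes a kinase that acts with Cdc42, had 7 mice at 0 with its other end at 86.4% to 100%, and 7 mice above 0 with it at 62.6% to 75.5%. Not every fragment did this: of the 12 sites with the most zeros and a listed other end, r was negative at 6 and positive at 6, and at Irf2bp2 the other end was at 82.5% to 100% whether the site was at 0 or not.

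Fragments with no end among the chosen sites were also described. Over fragments of these sizes with both ends listed and an SD of at least 0.05 at each, r over the 14 mice had a median of -0.92 in the 353 fragments with an end among the 1014 sites. In the 683 fragments with both ends in promoter CpG islands and no end among the sites, the median r was -0.87 with quartiles of -0.94 and -0.66, and 88.7% were negative. In the latter the median level was 49.5% and the levels of the 2 ends added up to a median of 98.4%. In the 868 fragments with no end in a promoter or CpG island, the median r was 0.54, 27.5% were negative and the median level was 77.8%. These are descriptions across fragments that share the same 14 libraries, and both ends of a fragment share its reads. RRBS library preparation fills in the cut MspI ends with added cytosines. Whether such bases were trimmed before the levels were called is not given in the sources used here, so levels and zeros within CCGG may include them, and their part in the zeros was not tested.

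**Figure D3:**
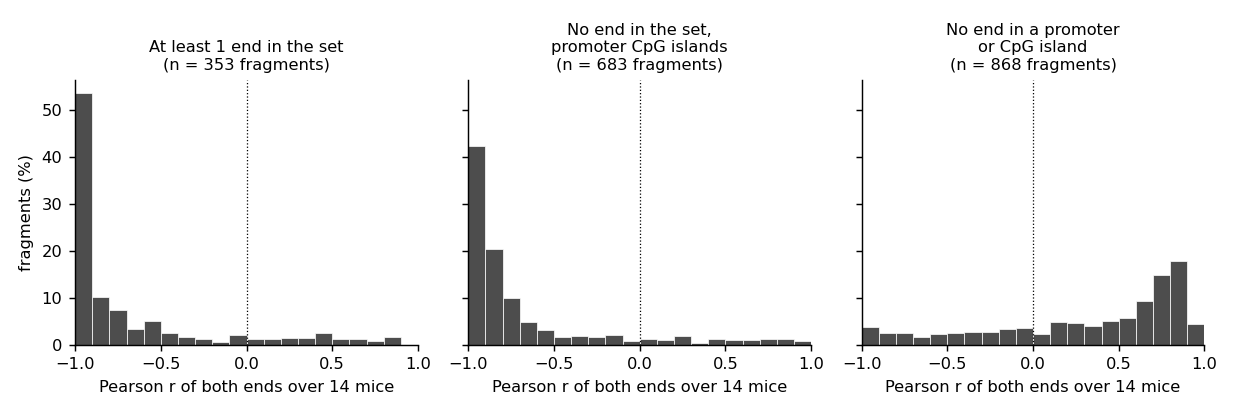
The percent of MspI fragments (y axis) is plotted by the Pearson r between the methylation levels of their 2 end CpGs over the 14 mice (x axis), for fragments with an end among the 1014 sites (left), promoter-island fragments with no such end (middle) and fragments outside promoters and islands (right). The left and middle panels pile up near -1, with medians of -0.92 and -0.87, and the right panel leans to the positive side, with a median of 0.54.

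Listed sites within 50 bp that were not chosen were lower on average in the mice at 0, and chosen neighbours are described further below. Of the 1014 sites, 293 (28.9%) had a listed site within 50 bp, against 56.7% of all autosomal sites, and 721 had none; 92.5% of these 721 were within CCGG, against 32.1% of the 293. In the mice at 0, neighbours that were not themselves among the 1014 sites averaged 22.1%, against 26.6% at the same sites in the mice above 0. The mean difference over 440 pairs of a mouse and a site was -4.51 percentage points and was negative in all 14 mice. Taken singly, these neighbours were also at 0 in that mouse in 29.5% of combinations at 1 to 10 bp. At 11 to 25 bp the share was 28.4%, and at 26 to 50 bp it was 33.9%. Of these neighbours, 34.7% were at 0 in at least 1 mouse. The rule had removed any neighbour with both a 0 and a level of 30% or more, so it shaped the difference and these shares. No share at 0 in the mice above 0 is given beside them. The chosen sites near these neighbours averaged 22.5% in the mice above 0. Their step to 0 followed from the rule that chose them, so it is not compared with that of the neighbours. Beside sites within CCGG the difference was -1.28 points (24% against 25.3%), and beside sites outside it -5.82 points (21.3% against 27.1%).

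Between groups, the 504 neighbours that were not chosen averaged 23.9% ± 1.95 (SD, n = 3) in CON-LFD, 23.8% ± 2.93 (SD, n = 4) in DIO-HFD, 25.1% ± 1.70 (SD, n = 3) in DIO-LFD and 25.7% ± 0.317 (SD, n = 4) in DIO-VSG. Relative to DIO-HFD the differences were 0.0874 points in CON-LFD (exact permutation test, two-sided, p = 0.971), 1.29 in DIO-LFD (exact p = 0.629) and 1.87 in DIO-VSG (exact p = 0.314), all within the spread between mice. The direction in CON-LFD was not stable, at -0.551 points for neighbours within 25 bp.

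**Figure D4:**
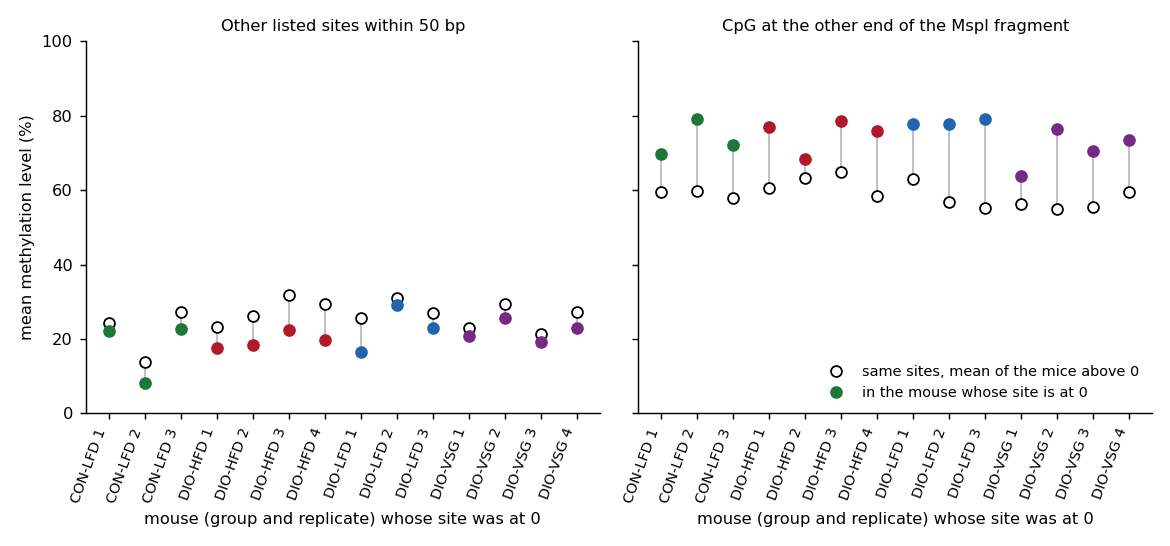
Mean methylation level (y axis, %) is plotted for each mouse (x axis) at other listed sites within 50 bp of its zeros (left) and at the other end of the MspI fragment (right), with filled points for the mouse at 0 and open points for the mean of the mice above 0 at the same sites. Within 50 bp the filled points lie below the open ones in all 14 mice, with a difference of -4.51 percentage points over all pairs, and at the other fragment end they lie above in all 14, by 18.4 points.

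Where chosen sites lay within 50 bp of each other, most pairs shared at least 1 mouse at 0. There were 107 such pairs, among 93 sites in 34 clusters. Of 780 combinations of a zero and a chosen neighbour, the neighbour was also at 0 in that mouse in 540 (69.2%). The M5C1000I18Rik cluster gave 330 of these combinations, and without it the share was 65.8% (296 of 450). Clusters at 0 in many mice weigh most in these shares, as at the 5 clustered Nsd1 sites, where 6 mice were at 0 at every site. The zeros also chose the sites, so no expected share is set beside them. By pairs, 17 had exactly the same mice at 0, 29 shared no mouse and the others shared some. The largest cluster, the 7 CpGs of the M5C1000I18Rik cluster printed above, was methylated in a single mouse. DIO-VSG replicate 3 was at 32.8% to 41.9% at all 7, and no other mouse exceeded 6.12% at any of them. The next listed CpG, within CCGG at 67760625, was at 33.3% to 62.5% over the mice.

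At Gm22603 and Col12a1, clusters of zeros fell in DIO-VSG mice. The Gm22603 cluster had 15 of its 17 zeros in DIO-VSG mice, and at its site 56459481 the levels were 5.26%, 17.9% and 0% in CON-LFD, 45.5%, 21.4%, 43.8% and 8.70% in DIO-HFD, 29.6%, 35.5% and 4.76% in DIO-LFD and 0% in all 4 DIO-VSG mice. Its neighbours 2 bp away on both sides, also chosen sites, were at 0% to 16.7% in DIO-VSG mice and at 26.1% to 78.5% in DIO-HFD mice. CON-LFD mice were at 5.26% to 39.0% there and DIO-LFD mice at 0% to 66.7%, so both overlapped with DIO-VSG mice. Such levels helped to choose these neighbours, so they are described only. Col12a1, which encodes the alpha chain of collagen XII, held 4 chosen sites over 43 bp outside CCGG, with 13 of 14 zeros in DIO-VSG mice. At 79714555 the DIO-HFD mice were at 7.22%, 9.33%, 11.8% and 6.63% and all DIO-VSG mice at 0%, while DIO-LFD replicate 3 alone reached 35.3%. The Nkx2-4 cluster, in the gene of a homeobox transcription factor, had zeros in 7 mice of all 4 groups.

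At 11 single sites every mouse of a group was at 0 while a group compared with it had none. At 10 of them all 4 DIO-VSG mice were at 0 and no DIO-HFD mouse was. Every mouse of a group was at 0, whatever the others did, at 6 sites in CON-LFD, 3 in DIO-HFD, 11 in DIO-LFD and 14 in DIO-VSG. Having a zero was part of the rule that chose the sites, so these counts are described and not tested. Over all tested sites, with no zero required, DIO-VSG levels lay wholly below DIO-HFD levels at 2.03%.

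Ctnnb1 was the only site with all DIO-LFD and DIO-VSG mice at 0 and no DIO-HFD mouse at 0; at Lpgat1, named here after its values were seen, those 7 mice were at 0 and so were DIO-HFD replicate 4 and CON-LFD replicates 1 and 3. The Ctnnb1 site at 120933370 lies in the gene's span, 30 bp before the listed transcript start, in a promoter and CpG island. The levels were 14.3%, 30.4% and 11.8% in CON-LFD, 27.6%, 19.3%, 19.7% and 13.5% in DIO-HFD, and 0% in all 7 weight-loss mice. The weight-loss mice did not overlap with either other group.

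Nkiras1 and Tmem9b were at 0 in DIO-VSG mice and in some DIO-LFD mice. The Nkiras1 site lies in an intron of that gene and in a UTR of Rpl15, a ribosomal protein gene. It was at 44.4%, 55.9% and 52% in CON-LFD, 48.5%, 48.4%, 47.8% and 42.7% in DIO-HFD, 0%, 48.6% and 0% in DIO-LFD, and 0% in all DIO-VSG mice. The other end of its fragment was at 45.3% to 56.1% in DIO-HFD mice and at 50%, 50%, 63.6% and 72.7% in DIO-VSG mice. The Tmem9b site, in a UTR of this transmembrane protein gene, was at 38.8% to 44.7% in DIO-HFD, at 24.4%, 40.3% and 0% in DIO-LFD and at 0% in DIO-VSG.

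At Zc3h6, the 2 ends of the fragment did not move in opposite directions between groups. Its site was at 44.7%, 53.2%, 40.0% and 54.2% in DIO-HFD and at 0% in DIO-VSG. The site was also at 0% in CON-LFD replicate 3 and DIO-LFD replicate 3. The highest level was 48.2% in CON-LFD and 39.1% in DIO-LFD. The other end was at 33.3% to 51.9% in DIO-HFD and at 19% to 50% in DIO-VSG.

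Ogdh and Kpna3, the latter encoding an importin alpha, were also at 0 in mice of 3 groups. The Ogdh site, in a UTR 16 bp after the transcript start, was at 52.1%, 51.4%, 41.9% and 37.5% in DIO-HFD and at 0% in all DIO-VSG mice, in 2 of the 3 CON-LFD mice and in 2 of the 3 DIO-LFD mice. The Kpna3 site, in an intron, was at 15.2%, 22.0%, 43.8% and 22.7% in DIO-HFD and at 0% in the same numbers of the other mice. Bicd1 ran the opposite way, with 0% in all 4 DIO-HFD mice, 5.48%, 33.3% and 3.33% in CON-LFD, 2.08%, 12.5% and 4.55% in DIO-LFD and at most 2.27% in DIO-VSG.

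**Figure D5:**
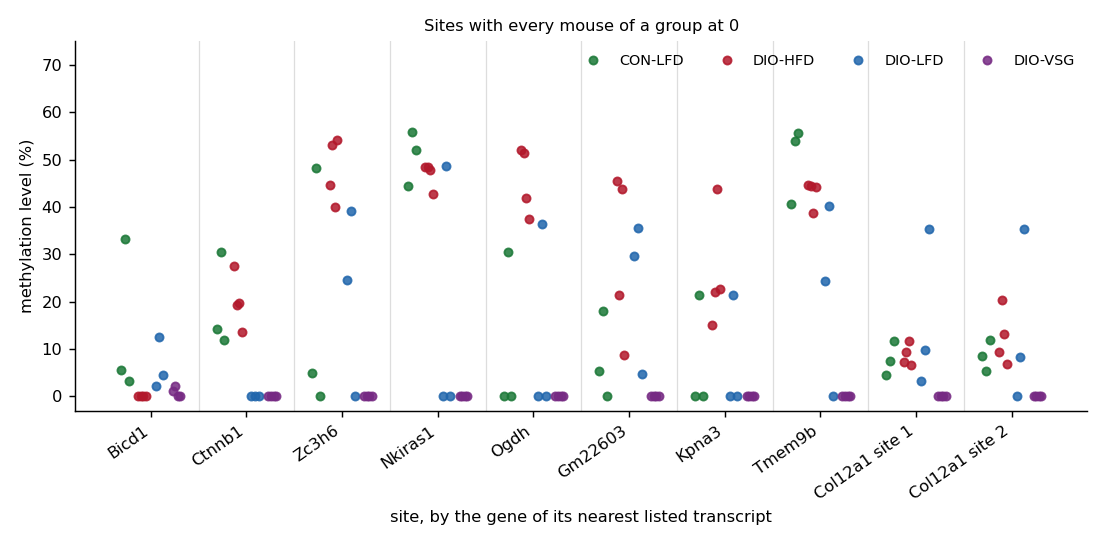
Methylation level (y axis, %) in each of the 14 mice (points, colored by group) is plotted at 10 of the 11 sites with every mouse of a group at 0 and none of a group compared with it (x axis). DIO-VSG points lie at 0 at 9 of them, and at Bicd1 the DIO-HFD points do.

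Few of these differences passed a test across the whole table. All 1014 sites passed the filter on SD. With limma on M values and Benjamini-Hochberg adjustment over 65610 sites, 0 of the 1014 were called in CON-LFD relative to DIO-HFD (0.00% of all tested sites called, smallest adjusted p among the 1014 0.611), 1 in DIO-LFD (0.00305% of all called) and 1 in DIO-VSG (0.00305% of all called). The called site was that of Ctnnb1 in both, lower by 4.67 M units, with an SE of 0.393 and an adjusted limma p of 0.00140 in DIO-LFD and with an SE of 0.364 and an adjusted limma p of 0.000349 in DIO-VSG. None of the sites was called in DIO-LFD with an offset of 0.1, on the level scale, or with trend and robust in eBayes, nor in DIO-VSG with trend and robust. An M unit is a doubling of the ratio of methylated to unmethylated share, and at a level of 0 it depends on the offset of 0.01 added to both. All Ctnnb1 levels in DIO-LFD and DIO-VSG mice were 0 (SD 0), so these groups added no spread to the SE. The read depth behind those zeros is unknown. At an unadjusted limma p under 0.05, 52 of the sites passed in CON-LFD, 117 in DIO-LFD and 137 in DIO-VSG, where 7.76%, 10.1% and 25% of all tested sites passed. Since these levels chose the sites, nothing is read from the counts. Without DIO-HFD replicate 1, whose mean autosomal level of 65.2% stood apart from 57.0% to 57.5% in the other DIO-HFD mice, 17, 29 and 54 of the then 973 chosen sites were called, and so were 7812, 9569 and 22455 of all 64719 sites tested. Without CON-LFD replicate 2 no Ctnnb1 call was counted, because the next highest level at the site, 27.6%, is under the 30% limit.

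Complete separation from the DIO-HFD mice, with no overlap of the levels, was found at 71 of the 1014 sites in CON-LFD, where 4.68% of all tested sites did so, and 47 of the 71 were lower in CON-LFD, where 1.40% of all tested sites were. In DIO-LFD it was found at 65 sites, against 4.80% of all tested, and 45 of them were lower, against 1.44%. In DIO-VSG 82 sites were wholly lower, against 2.03% of all tested, and 19 wholly higher, where 7.58% of all tested sites were separated in either direction. The choice of sites used these levels, so nothing is read from the counts, and the 3 comparisons share the DIO-HFD mice.

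By the gene of the nearest listed transcript, the sites fell in 797 of 12086 genes (6.59%), with 1 site in 645 genes, 2 or more in 152 and 3 or more in 33. The genes with the most were M5C1000I18Rik with 7, Nkx2-4, Gm21119 and Nsd1 with 6 each, Gm22603, 2410018L13Rik and Gm26140 with 5 each, and Cux1, Col12a1, Cbx8 and Nrg3 with 4 each. Nsd1 encodes a histone H3K36 methyltransferase, Cux1 a homeobox transcription factor and Cbx8 a Polycomb protein. Within 50 bp of another lay 5 of the 6 Nsd1 sites, with 9 mice at 0 at one or more of them and DIO-HFD replicate 3 at 46.2% at the first and at 32.4% at the last of the 5.

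In gene lists relevant to the tissue and treatment, the share of sites chosen ran from 0% to 3.03%, against 1.40% of all autosomal sites. Of the 91 autosomal sites near adipocyte and lipid metabolism genes, 1 was chosen, near Pnpla2, which encodes adipose triglyceride lipase; it was at 0 in DIO-LFD replicate 2 and at 39.8% to 60.2% in the other 13 mice. None of 64 sites near mammary epithelial genes was chosen, and 1 of 33 near lymphocyte and myeloid genes was, near Ikzf1, the gene of the transcription factor Ikaros. That site was at 0 in DIO-VSG replicate 2, and its other fragment end, also chosen, was at 0 in 10 mice. In the Wnt pathway 6 of 393 sites were chosen, near Axin2, Ctnnb1, Dvl1, Wnt1, Wnt10a and Wnt4.

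Of the 263 sites near imprinted genes 3 were chosen, near Gnas and Grb10. The Gnas site at 174329242 was at 0 in 6 mice of 3 groups, and its 3 listed neighbours, 6, 11 and 42 bp away, were at 0% to 39.1% over the mice. Of 317 Hox cluster sites 2 were chosen, both near Hoxd11. Of 133 sites near DNA methylation enzymes and chromatin regulators 4 were chosen, near Crebbp, Hdac5, Kdm1a and Kdm6b, with 4 zeros together in CON-LFD mice, 2 in DIO-HFD, 5 in DIO-LFD and 5 in DIO-VSG. These shares are descriptions, set beside the 1.40% of all autosomal sites, and no list was tested.

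Among sites with 3 or more mice at 0, the most separated levels were at Nkiras1, Ism1, Trio, Syncrip and Arc, all within CCGG. At Ism1, in a coding exon, the 3 mice at 0 were DIO-LFD replicate 3 and DIO-VSG replicates 2 and 3, and CON-LFD replicate 3 was at 100%; the others were at 40.0% to 63.8%. At Arc, an immediate early gene, the mice at 0 were CON-LFD replicate 1, DIO-HFD replicate 1 and DIO-LFD replicate 2, with the others at 35.4% to 48.1%. At Syncrip, which encodes an RNA-binding protein, the site at 88481578 was at 0 in DIO-LFD replicates 1 and 3 and DIO-VSG replicates 3 and 4. The other end of its fragment, 133 bp away and also chosen, was at 100%, 100%, 64.3% and 95.5% in those 4 mice and at 0 in CON-LFD replicate 3 and DIO-VSG replicate 2, where the site itself was at 84.6% and 70%. At Trio the mice at 0 were DIO-LFD replicates 1 and 3 and DIO-VSG replicate 2, with the others at 37.3% to 55.9%. The zeros at these sites fell in mice of 2 or 3 groups, never in 1 group alone.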

How the data were processed

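RRBS was performed on mammary fat pad DNA from 14 mice. The authors aligned the reads to mm10 with Bismark and called methylation with methylKit; the deposited values are the methylated fraction of the reads at each cytosine in each mouse, with no read counts, so the depth and precision of single levels are unknown and no counting interval is given. The study's methods name removal of 2 outlier mice, of bases with an SD under 0.05 and of bases with extreme coverage; 10151 sites with an SD under 0.05 are in the table. A minimum coverage is not given in the sources used here. The table's flags, transcript distances and gene symbols were used as listed; 5 chosen sites had no symbol and 4 a symbol turned into a date. Sequence context came from mm10 in RefSeq, exons and UTRs from GENCODE.

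Each sample is a separate mouse, and groups were taken from the labels. Levels were compared with limma 3.58.1 in R 4.3.3 on M = log2((level + 0.01)/(1 - level + 0.01)) over the 65610 sites with an SD of at least 0.05, with 4 groups in 1 model and Benjamini-Hochberg adjustment. This was checked on simulated data. Values per mouse were compared by exact permutation tests (SciPy 1.17.1). Sites named in the text are those with a whole group at 0 and another without zeros, the largest clusters, the most separated levels at 3 or more zeros, the genes with the most sites, called sites, those nearest the 30% limit and, per gene list, that with the most zeros; none is on chromosome 18, and 1 site that met this rule is not reported here. The fragment ends, Cdc42bpa, Bmpr1a and Irf2bp2 among them, and Nrg3, tied at 4 sites, were added after the values had been seen. The sites and gene lists were chosen with earlier results of these data known. Alternatives covered the offset, the M scale, eBayes options, the SD filter, 2-group fits, the replicate block, the limits on level and distance, and each mouse left out.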

Additional observations from a re-analysis of the deposited data

Results flagged for a closer look

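Among 96 sets of 4 mice tested for a mouse far from the others, 16 stood out. Chance gives about 1 in 20 where levels did not choose the sites; here they did, so this count is a description only. The ratio given is the gap to the nearest mouse over the range of the group. Most were in the M5C1000I18Rik cluster, where DIO-VSG replicate 3 was at 32.8% to 41.9% and had ratios of 0.951, 1, 1, 1, 0.851, 0.950 and 0.945 at the 7 CpGs. DIO-HFD replicate 1 had a ratio of 1 at 2 of these CpGs, at levels of only 2.00% and 3.54%. At Kdm1a DIO-HFD replicate 3 was at 0% with a ratio of 0.882, and DIO-VSG replicate 4 was at 24.4% with a ratio of 1. At Arc DIO-HFD replicate 1 was at 0% with a ratio of 0.896. At Nkx2-4 DIO-VSG replicate 1 was at 31.6% with a ratio of 0.903. The others lay nearer their group, at Nkiras1 (DIO-HFD replicate 4, 42.7%, ratio 0.886), Tmem9b (DIO-HFD replicate 3, 38.8%, ratio 0.939) and Lmx1a (DIO-HFD replicate 1, 8.82%, ratio 0.832).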

How the results depend on the processing

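The depth behind each zero was not measured, and each group had 3 or 4 mice. Of the 240 recomputed values, 208 were counted as unchanged. For differences this meant the same direction and side of the threshold, at any size. The DIO-LFD difference at low sites counted so although it shrank from 4.16 to 0.488 points with levels of at most 0.02 as 0. Shares of sites at 0 have no direction or threshold, and the CON-LFD share of 8.74% counted as unchanged at 14% and 4.32%. With a limit of 20% or 50% on the highest level, 1821 or 478 sites were chosen and the share at 0 became 12% or 3.609% in DIO-HFD and 14% or 4.32% in CON-LFD. With levels of at most 0.02 counted as 0, the difference in zero share at low sites was -1.43 points in CON-LFD and -1.17 in DIO-VSG (exact permutation p = 0.686 for both). For the neighbours in CON-LFD it was -0.551 points within 25 bp and -0.696 with the replicate block, and leaving out single mice it ran from -0.850 to 1.57. Other ranges without single mice were 0.290 to 3.12, 2.81 to 5.36 and 1.67 to 3.35 points for the zero shares of CON-LFD, DIO-LFD and DIO-VSG at low sites, and 0.413 to 2.78 and 0.889 to 3.40 points for the neighbours in DIO-LFD and DIO-VSG. Sites called in DIO-LFD were 0 with an offset of 0.1, on the level scale, or with trend and robust in eBayes; those in DIO-VSG were 2, 2 and 0, and 15 in the fit of 2 groups, where 4, 3, 0 and 47 of all 65610 sites were called. Leaving out single mice they ran from 0 to 17 in CON-LFD, 0 to 29 in DIO-LFD and 0 to 54 in DIO-VSG, highest without DIO-HFD replicate 1; without DIO-LFD replicate 2 they were 1, 9 and 5, of 6, 35 and 10 called among all sites, without CON-LFD replicate 3 1 was called in CON-LFD, without DIO-LFD replicate 1 2 in DIO-LFD, without DIO-LFD replicate 3 3 in DIO-VSG, without DIO-VSG replicate 2 2 each in DIO-LFD and DIO-VSG, and without DIO-VSG replicate 4 2 in DIO-VSG. The other causes were not tested. Deviations of same-numbered mice of different groups correlated at -0.0804 to 0.202 (median 0.0341, 19 pairs). Those of other-numbered mice correlated at -0.288 to 0.191 (median -0.0163, 54 pairs). The ranges overlapped, and so few pairs cannot exclude a link between same-numbered mice. The mice were treated as unpaired, and the replicate block left the counts at 0, 1 and 1.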
